A study of Mus musculus with 4 samples.

Results

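The insulin-like growth factor (IGF) axis was followed in NIH-3T3 cells through 8 genes, which are the ligand gene Igf1, the receptor gene Igf1r and the binding protein genes Igfbp2, Igfbp3, Igfbp4, Igfbp5, Igfbp6 and Igfbp7. The members were all gene probes on the array whose accession belongs to one of these symbols, which gave 12 probes of 55681 and 8 gene names of 36838. NIH-3T3 is an established line of mouse embryonic fibroblasts, labelled as wild type. RNA was hybridized to 4 one-colour Agilent mouse arrays, with 1 array per group. The untreated group was a culture with no treatment in its label. Each of the other groups was a confluent culture kept with 20 µM of AR7, CA39 or CA77 and collected after 24 h. These are small molecules directed at retinoic acid receptor alpha and made to raise chaperone-mediated autophagy, the uptake of single proteins by lysosomes. All cultures grew in medium with serum, which itself carries growth factors and binding proteins.

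IGF1 is a secreted growth factor that binds IGF1R at the cell surface, a tyrosine kinase that passes the signal through docking proteins such as IRS1 to phosphoinositide 3-kinase and AKT. Outside the cell most IGF is held by binding proteins, which keep it from the receptor or carry it there, and proteases such as pappalysin release it by cutting them. Fibroblasts make several of these binding proteins themselves, and retinoic acid is known to change the output of some of them in cultured cells.

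Promoters are shown first for the members on which the results turn. These are Igf1, Igfbp4 and Igfbp7, which had a probe past 2-fold with CA39, and Igfbp6, which was above untreated on each treated array. Each sequence is the 250 bases before the RefSeq gene start in assembly GRCm38.p6, read 5′ to 3′ on the strand of the gene. Capitals mark 3 motifs, each searched as written and as its reverse complement. They are the nuclear receptor half-site AGGTCA, the GC box GGGCGG and the TATA box TATAAA. The Igf1 window is chr10:87860861-87861110 on the plus strand and holds 1 half-site.
Igf1: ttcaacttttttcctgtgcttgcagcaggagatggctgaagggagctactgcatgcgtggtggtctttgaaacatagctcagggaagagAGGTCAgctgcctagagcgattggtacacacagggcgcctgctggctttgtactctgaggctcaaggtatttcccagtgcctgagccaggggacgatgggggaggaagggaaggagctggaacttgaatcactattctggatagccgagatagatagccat
The Igfbp4 window is chr11:99040994-99041243 on the plus strand and holds 1 TATA box close to the gene start.
Igfbp4: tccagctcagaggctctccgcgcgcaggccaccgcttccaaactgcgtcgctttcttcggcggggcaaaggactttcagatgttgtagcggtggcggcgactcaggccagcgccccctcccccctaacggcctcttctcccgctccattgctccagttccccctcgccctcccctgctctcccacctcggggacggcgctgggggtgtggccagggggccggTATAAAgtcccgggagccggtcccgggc
The Igfbp6 window is chr15:102143936-102144185 on the plus strand, and its 1 TATA box match is on the opposite strand.
Igfbp6: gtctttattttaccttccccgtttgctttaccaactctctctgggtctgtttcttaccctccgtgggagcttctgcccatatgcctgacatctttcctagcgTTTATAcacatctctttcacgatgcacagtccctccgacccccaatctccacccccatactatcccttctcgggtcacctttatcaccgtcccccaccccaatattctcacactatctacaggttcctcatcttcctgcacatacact
The Igfbp7 window is chr5:77408046-77408295 on the minus strand and holds 4 GC boxes.
Igfbp7: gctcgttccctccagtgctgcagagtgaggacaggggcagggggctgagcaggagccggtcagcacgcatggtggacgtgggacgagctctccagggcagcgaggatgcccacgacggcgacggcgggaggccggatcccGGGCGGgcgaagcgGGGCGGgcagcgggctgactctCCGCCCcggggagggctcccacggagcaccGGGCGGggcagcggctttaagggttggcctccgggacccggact
The 8 members have 9 promoters in this set. A half-site was found in 2 of them (Igf1 and Igf1r), against 14.0% of all 32851 promoters. A GC box was found in 3 (Igf1r, one of the Igfbp2 promoters and Igfbp7), against 32.7% of all, and a TATA box in 2 (Igfbp4 and Igfbp6), against 12.4% of all. No matches overlapped in these promoters. GC content differed among the printed windows, at 49.6% for Igfbp6, 52.8% for Igf1, 69.2% for Igfbp4 and 74.0% for Igfbp7. A match describes the letters only.

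Values are log2 of background-corrected, quantile-normalized signal, and a difference is 1 array minus another on that scale. No group has a replicate, so no test was possible, no p-value is given and no difference has a replicate check. The only repeats are spots within an array. Of 399 probes printed 10 times, 265 to 302 were detected per array, and over these the median SD between spots was 0.09 to 0.12 (log2). Each member was given a tolerance from the spot SD at its own level, 0.13 to 0.20 for the main probes detected on any array. It is 1 SD of a difference from spot error, for the number of spots of the probe, so spot error alone can pass it. The spread between cultures is not in it. Each Igf1 probe has 2 spots per array and every other member probe has 1. For those with 1 spot no repeat was available on the array. The scanner software marks spots that are well above background, and a probe with over 50% of such spots was called detected. Detection ran from 52.2% to 61.6% of probes on the treated arrays and was 69.7% on the untreated array. Where a probe was not detected, the higher of its own value and the 1st percentile of detected signal of that array stood in for it. Where the 1st percentile stood in, the fold is a bound, written as at least that size. These floors were 5.88 (untreated), 6.82 (AR7), 6.87 (CA39) and 6.26 (CA77). The difference was set to 0 where the brighter side, after this, was the one not detected.

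On the slide, row 1 held the untreated array and row 2 the treated ones, and the compounds came in DMSO while the control is labelled untreated. Compound, vehicle and slide row therefore cannot be told apart in what the treated arrays share. Scan 1 covered the untreated, AR7 and CA39 arrays, and the CA77 array was read in scan 2. Of 8 fibroblast markers, 7 were detected on all arrays (Col1a1, Col1a2, Col3a1, Vim, Fn1, Thy1 and S100a4), while Pdgfrb was detected only with CA39. Detection alone does not set fibroblasts apart, as all 3 endothelial markers (Pecam1, Cdh5 and Kdr) were also detected on all arrays by their main probes. So were Cd14, Krt8, Sox9, Acan, Fabp4, Sp7, Runx2, Cnn1, Acta2 and Tagln from the lists of other cell types. In bulk RNA, fewer cells of a type and less RNA per cell cannot be told apart.

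Of the 8 members, 4 were detected on every array by their main probe, the probe with the highest mean signal (Igf1r, Igfbp4, Igfbp6 and Igfbp7). Igf1 and Igfbp2 were detected on some arrays, and Igfbp3 and Igfbp5 on none. This left 6 members to compare with untreated. With AR7, 0 of 6 were past 2-fold, against 1.8% of all genes higher and 0.388% lower. With CA39, 1 was higher (Igfbp4) and 1 lower (Igfbp7), against 3.69% of all genes higher and 1.16% lower. With CA77, 0 of 6 were past 2-fold, against 1.93% higher and 0.548% lower. The members' median differences were -0.31 (AR7), 0.17 (CA39) and -0.08 (CA77), beside 0.00, 0.00 and -0.01 over all genes compared. At 1.5-fold the counts were 2 of 6 with AR7, 2 with CA39 and 1 with CA77, against 4.71%, 10.9% and 6.47% of all genes in either direction. Both AR7 calls lie at the threshold, as Igfbp4 (-0.59) fell under it with an offset of 50 (-0.51) and with the local median subtracted (-0.42), and Igfbp6 (0.61) with the 75th percentile scaling (0.56). Igfbp4 moved the other way with the 75th percentile scaling (-0.77), the quantile-normalized processed signal (-0.77) and the deposited series table (-0.78). These counts are small and describe 6 genes chosen by name.

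**Figure D1:**
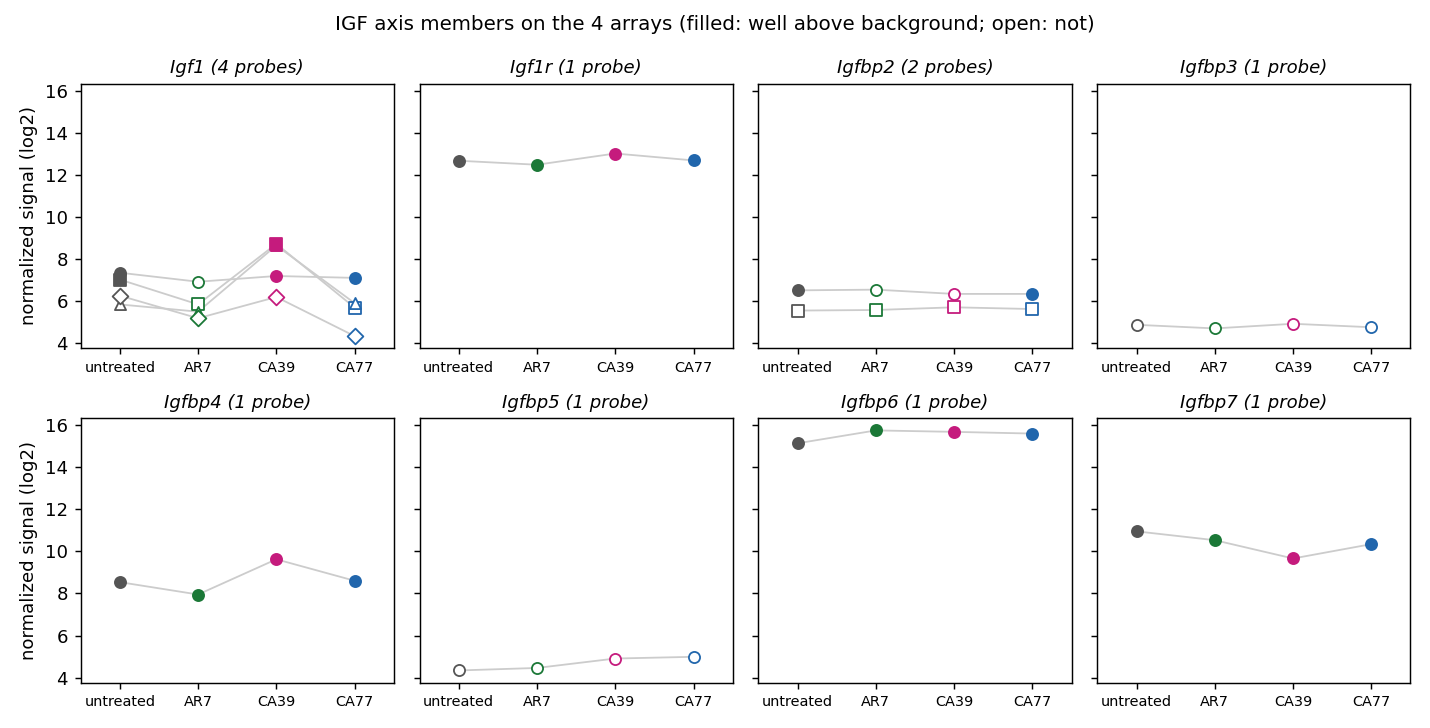
Normalized signal (log2) of every probe of the 8 members on the untreated, AR7, CA39 and CA77 arrays, 1 point per probe and array. Filled points were well above background and open points were not. Igfbp4 is highest and Igfbp7 lowest on the CA39 array, Igfbp6 is lowest on the untreated array, and Igfbp3 and Igfbp5 are open on all 4.

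For the ligand gene Igf1 the probes disagreed. It has 4 probes that match 1 transcript, each printed as 2 spots. The probe with the highest mean, A_55_P2031636, read 7.33 (untreated), 6.90 (AR7, not detected, with 1 of 2 spots above background), 7.18 (CA39) and 7.09 (CA77). Its levels lay close together, with CA39 lower than untreated by a difference of -0.16 and CA77 by -0.25, and the CA39 difference is just past its tolerance of 0.13. Untreated was 1.35-fold above AR7 by this probe (a difference of -0.43). This is no bound, as the AR7 value lies above the floor of that array. The difference ran from -0.31 (offset of 50) to -0.66 (75th percentile scaling). The spot above background on both arrays gave -0.23.

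Other measurements of Igf1 stood high on the CA39 array. Probe A_55_P2031631 read 7.01 (untreated), 5.83 (AR7, not detected), 8.71 (CA39) and 5.68 (CA77, not detected). CA39 was thus 3.24-fold above untreated (a difference of 1.70), at least 3.70-fold above AR7 and at least 5.46-fold above CA77. Probe A_55_P2085984 read 5.83 on untreated, 5.48 on AR7 and 5.89 on CA77, not detected on any of them (with 1 of 2 spots above background on untreated), and 8.63 on CA39. By this probe CA39 was at least 6.74-fold above untreated, at least 3.51-fold above AR7 and at least 5.18-fold above CA77. The size depended on the processing, as the CA39 difference from untreated ran from 2.04 (offset of 50) to 4.03 (deposited series table) around a main bound of 2.75, so the bound is that of the main processing. For A_55_P2031631 it ran from 1.32 (offset of 50) to 2.19 (quantile-normalized processed signal) over the alternatives that kept both spots. The remaining probe, A_55_P2085974, was not detected on any array and has no fold. If all detected probes of Igf1 are averaged, the CA39 difference is 1.43 in place of -0.16, so the direction for the gene turns on the choice of probe.

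The spots behind these probes were not alike on the untreated array. The spots of A_55_P2031631 there read 6.06 in grid row 285 and 7.96 in grid row 378, while on CA39 they read 8.84 and 8.57. The spots of A_55_P2085974 read 4.51 in row 137 and 7.98 in row 379. Both of the bright spots on the untreated array lie next to each other, in rows 378 and 379. Of the 46 gene spots within 3 rows and 3 columns of each, 4 and 3 were at least 2-fold above every other array on the untreated array, against 0.479% of all gene spots there. The windows overlap, so the same spots can count in both, and the window around row 378 holds the bright spot of row 379. Without the spot in row 378 (a choice made after its value was seen), the CA39 difference of A_55_P2031631 is 2.78. By this probe untreated was at least 1.69-fold above CA77 and at least 1.14-fold above AR7, and without that spot both differences are 0. With the floor at the lowest detected signal they are instead -1.18 for AR7 and -1.32 for CA77, and with no floor -1.18 and -1.33. The CA77 difference is also past 2-fold with the 75th percentile scaling (-1.12) and in the deposited series table (-1.01). For A_55_P2085984 the spots on CA39 read 8.57 in row 80 and 8.69 in row 194. Around them 0 of 46 and 4 of 44 spots were at least 2-fold above every other array on CA39, against 2.469% of all gene spots there. No member spot carried a quality flag on any array (0 of 16). The part of position on the array in these values was not tested.

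**Figure D2:**
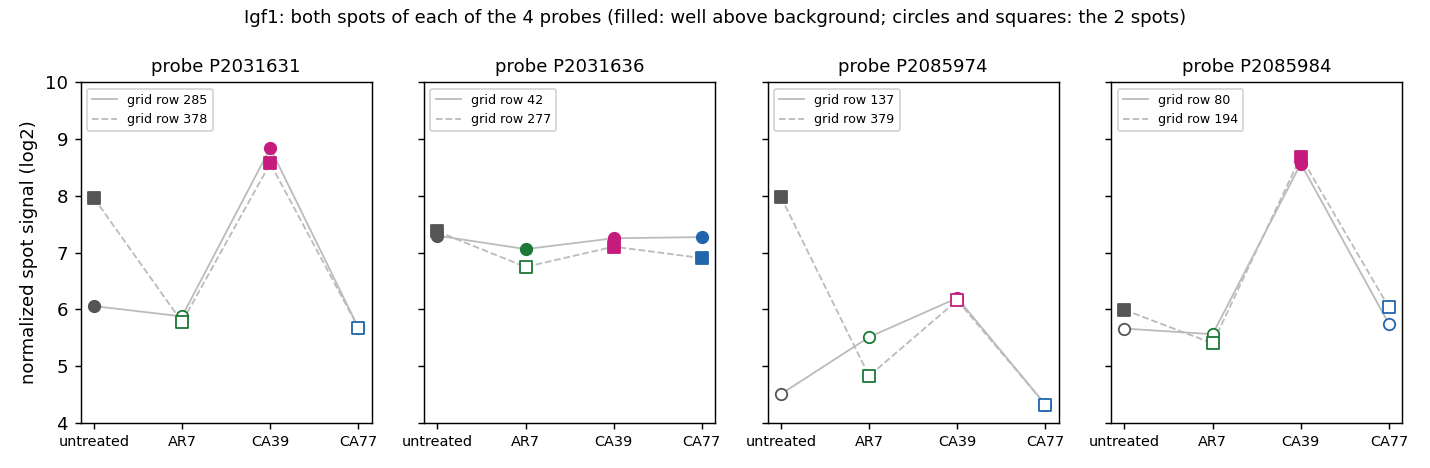
Normalized spot signal (log2) of both spots of each Igf1 probe on the 4 arrays, with circles and squares for the spots and the grid row of each in the key. Filled points were above background. CA39 is highest at both spots of A_55_P2031631 and A_55_P2085984, while 1 spot each of A_55_P2031631 and A_55_P2085974 on untreated lies near 8 (7.96 and 7.98), far from its partner.

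The receptor gene Igf1r codes for the tyrosine kinase that binds IGF1. Its probe A_66_P105801 read 12.66 (untreated), 12.47 (AR7), 13.00 (CA39) and 12.67 (CA77). The order was AR7, untreated, CA77, CA39, and untreated and CA77 did not differ beyond the tolerance of 0.15. CA39 was 1.27-fold above untreated (a difference of 0.34), 1.45-fold above AR7 and 1.26-fold above CA77. AR7 was 1.14-fold below untreated (-0.19). All of these are under 1.5-fold.

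Igfbp4 codes for a binding protein that holds IGF away from its receptor and is the main substrate of pappalysin. Its probe A_52_P257502 read 8.54 (untreated), 7.95 (AR7), 9.63 (CA39) and 8.60 (CA77), from net signals of 338, 213, 778 and 318 scanner units. CA39 stood above the other arrays and AR7 below them, while untreated and CA77 differed by 0.07, within the tolerance of 0.15. CA39 was 2.12-fold above untreated (a difference of 1.09) and AR7 1.5-fold below it (-0.59). The probe has 1 spot per array, so no repeated spot checks these values. The widest gap was between compounds, with CA39 3.19-fold above AR7 (1.67). The spots around the Igfbp4 probe had a median difference of -0.17 (AR7), 0.04 (CA39) and 0.05 (CA77). With that subtracted the AR7 difference was -0.42, the smallest in size over the alternatives, and the largest was -0.78 (deposited series table). The 2-fold call for CA39 was lost when a background offset of 50 was added, where the difference was 0.99.

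Igfbp6 codes for a binding protein that prefers IGF2 over IGF1. Its probe A_66_P139546 read 15.14 (untreated), 15.75 (AR7), 15.69 (CA39) and 15.60 (CA77), from net signals of 37043, 57872, 53851 and 46353 scanner units. All 3 treated arrays were above untreated, by 1.53-fold with AR7 (0.61), 1.46-fold with CA39 (0.54) and 1.38-fold with CA77 (0.46). The treated arrays differed from each other by at most 0.15, within the tolerance of 0.16, so their order was not resolved. Igfbp6 was the 1 member above untreated past its tolerance with every compound. A difference past the general tolerance of 0.16 in either direction was common over all genes, at 32.5% (AR7), 48.1% (CA39) and 44.9% (CA77).

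Igfbp7 codes for a secreted protein of the same superfamily that binds IGF weakly and is found in the matrix around vessels and fibroblasts. Its probe A_55_P2018611 read 10.95 (untreated), 10.53 (AR7), 9.66 (CA39) and 10.35 (CA77), from net signals of 1919, 1490, 789 and 1082 scanner units. All 3 treated arrays were below untreated, and every neighbouring pair in the order CA39, CA77, AR7, untreated differed by more than the tolerance of 0.15. Igfbp7 was 2.45-fold lower with CA39 (-1.29), 1.52-fold lower with CA77 (-0.61) and 1.34-fold lower with AR7 (-0.42). Like Igfbp4, it was measured by 1 spot per array. CA39 also lay 1.83-fold below AR7 and 1.60-fold below CA77. The closest neighbours, CA77 and AR7, were 1.14-fold apart.

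The other binding protein genes were at or under the level that could be measured. Igfbp2, whose product is an abundant carrier of IGF in serum, read 6.50 on untreated and 6.33 on CA77 by A_55_P2056729, a difference of -0.17 that is within its tolerance of 0.20. That difference was -0.38 with the quantile-normalized processed signal, -0.41 with the deposited series table and -0.50 with the 75th percentile scaling, all past the tolerance. On AR7 and CA39 the same probe read 6.53 and 6.33 and was not detected, and its second probe, A_66_P135391, was not detected on any array. Igfbp3 codes for the main serum carrier of IGF, and its probe A_52_P253179 read between 4.69 and 4.91, not detected on any array. Igfbp5 codes for a binding protein of bone and muscle matrix that pappalysin 2 can cut, and its probe A_52_P281702 read between 4.34 and 4.99, again not detected on any array. No fold is given for either gene, and a difference between the arrays was not detectable at these signals.

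The compounds were also compared directly, at the same dose and time, over 3 pairs. CA39 against AR7 had 1 of 5 members past 2-fold, Igfbp4, which was higher, against 3.72% of all genes higher and 2.43% lower. CA77 against AR7 had 0 of 6 past 2-fold, against 1.16% of all genes higher and 1.4% lower. Over all genes 45.3% of these calls were higher, which turned to 58.6% with the floor at the lowest detected signal and to 52.9% with no floor. CA39 against CA77 had 1 of 6, again Igfbp4, which was 2.03-fold higher with CA39, against 3.98% of all genes higher and 2.24% lower. An offset of 50 in the background correction left no member past 2-fold in the last pair (0 of 6). Over all genes that setting gave 809 higher and 471 lower of 25468. With the mean of all detected probes 2 members were higher for CA39 against AR7 and 2 for CA39 against CA77. Over all genes it gave 845 higher and 549 lower of 23191 in the first of these pairs, and 986 and 539 of 25547 in the other. Igf1 by A_55_P2031631 and A_55_P2085984, at least 3.51-fold above both compounds, is not in the main counts, which use its probe with the highest mean. At 1.5-fold the counts were 2 of 5 for CA39 against AR7, 1 of 6 for CA77 against AR7 and 2 of 6 for CA39 against CA77, against 14.2%, 4.73% and 13.2% of all genes in either direction.

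Between AR7 and CA77 the detected members lay closer. Igfbp4 was 1.57-fold higher with CA77 than with AR7 (0.65), the one difference between these arrays past 1.5-fold among the members. Igf1r differed by 0.20, Igfbp7 by -0.19 and Igfbp6 by -0.15 (CA77 minus AR7). The Igf1r and Igfbp7 differences were past their tolerances and the Igfbp6 difference was not. With no replicate culture, no interval for the difference of compounds can be given beyond this spot error.

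**Figure D3:**
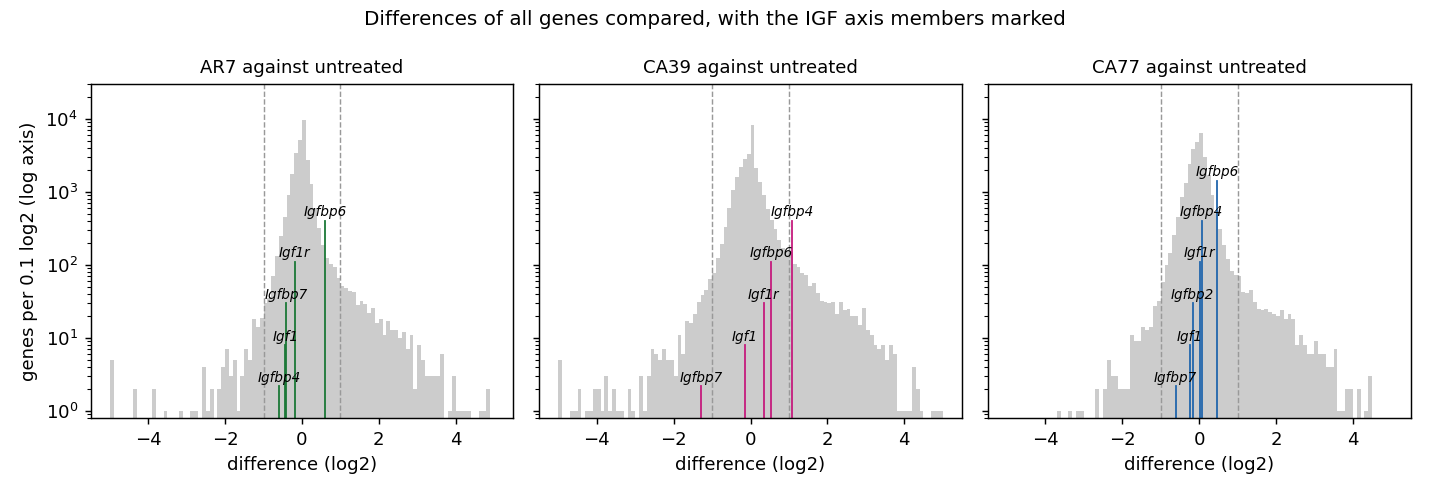
Histograms of the log2 difference from untreated of the genes compared, per 0.1 log2 on a log axis, for AR7, CA39 and CA77. The lowest bin holds all values beyond it, and values above the highest bin are not drawn. Coloured lines mark the members' main probes (line heights carry no value, and differences set to 0 are not marked) and dashed lines mark 2-fold. With CA39, Igfbp4 (1.09) and Igfbp7 (-1.29) lie past the dashed lines. With AR7 and CA77 all marked members lie between them.

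Patterns most like that of a member were sought among 13018 other named genes detected on every array, by the Euclidean distance over the 3 differences from untreated. For Igfbp4 (-0.59, 1.09 and 0.07 with AR7, CA39 and CA77) the nearest were Gpr146 at 0.20, Stat2 at 0.22 and Mblac2 at 0.26. Gpr146, an orphan receptor gene, had differences of -0.40, 1.08 and 0.01. For Igfbp7 (-0.42, -1.29 and -0.61) the nearest were Trim9 at 0.12, Rab6b at 0.21 and Kcnj2 at 0.24. Trim9, a ubiquitin ligase gene, had differences of -0.42, -1.21 and -0.69. The 3 differences share the untreated array, and these distances describe 4 arrays.

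A wider list of 35 genes covered other ligands, receptors, docking proteins, carriers, proteases and signalling proteins of the pathway, and 31 of them could be compared with untreated. With AR7 0 were past 2-fold, with CA39 1 was higher (Irs1) and 0 lower, and with CA77 0 were. The background shares are those given for the members. The median differences of the list were -0.07, 0.05 and -0.04 with AR7, CA39 and CA77, near the 0.00, 0.00 and -0.01 of all genes.

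Irs1 codes for the docking protein that links IGF1R to phosphoinositide 3-kinase. Its main probe read 10.08 (untreated), 9.70 (AR7), 11.30 (CA39) and 9.90 (CA77). CA39 was above the other 3 arrays, by 1.21 over untreated, 1.59 over AR7 and 1.40 over CA77. The second probe gave a smaller difference of 0.90 for CA39 against untreated.

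The remaining receptors and ligand lay closer to untreated. Insr, the insulin receptor gene, read 8.74 (untreated), 8.54 (AR7), 9.16 (CA39) and 9.02 (CA77), with differences of -0.20, 0.41 and 0.28. Its other probes gave -0.01, 0.42 and 0.44, and 0.02, -0.04 and -0.02. Igf2r, which codes for the receptor that clears IGF2, was above untreated by 0.21, 0.26 and 0.38 with AR7, CA39 and CA77. Igf2, the other ligand gene, read 6.24 (untreated), 6.29 (AR7), 6.12 (CA39) and 6.02 (CA77), was detected on the untreated array only, where the floor is lowest, and had all differences set to 0. Irs2, a docking protein gene like Irs1, differed by 0.17, -0.09 and -0.04.

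Several wider genes lay past 1.5-fold and are named after their values were seen. Stc2, a stanniocalcin gene whose product blocks pappalysin, was above untreated with AR7 by 0.75, and Sos1, an activator of RAS, was below it by a difference of -0.70. With CA39, Mmp2, a matrix protease gene, differed by 0.63 and Htra1, a serine protease gene whose product can cut binding proteins, by -0.59. With CA77, Stc1, another stanniocalcin gene, differed by -0.91 (6.33 against 7.23 on untreated). It was not detected with AR7 and CA39, at 6.21 and 6.18, which gave bounds of -0.41 and -0.36. At 1.5-fold this makes 2 of 31 with AR7 against 4.71% of all genes, 3 of 31 with CA39 (Irs1 included) against 10.9%, and 1 of 31 with CA77 against 6.47%. Igfbp1, Igfbpl1, Foxo1 and Foxo4 were not detected on any array.

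**Figure D4:**
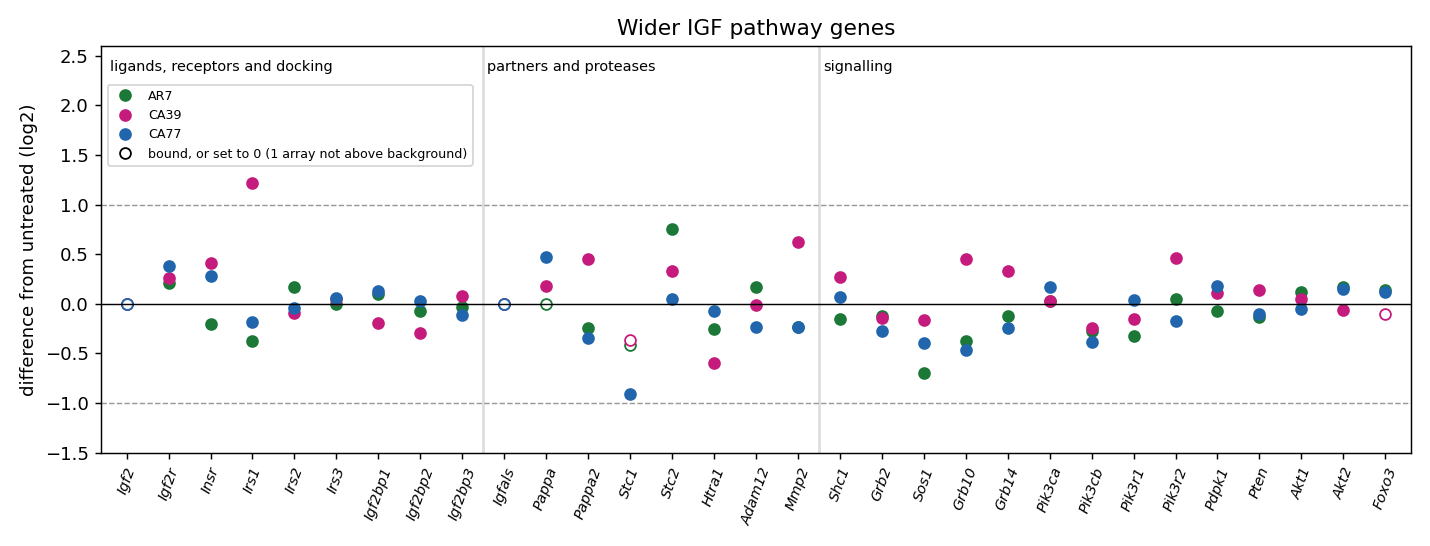
Difference from untreated (log2) of the wider pathway genes that could be compared, by their main probe, for AR7, CA39 and CA77, with dashed lines at 2-fold. Filled points were measured and open points are bounds or differences set to 0. The Igf2bp genes, RNA-binding proteins named for Igf2, are drawn with the first group. Only Irs1 with CA39 (1.21) lies past the dashed lines.

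Genes that mark other cell types also stood apart on the CA39 array. Of the 3 epithelial markers Krt8 was detected on all arrays and read 10.04 on CA39 against 7.30 to 7.67 elsewhere, Epcam was detected only on CA39, and Cdh1 on none. The summed signal of these markers was 1303 on CA39 and 233 to 297 on the other arrays (linear units). For the 3 cartilage markers the sum was 11598 on CA39 and 4879 to 6066 elsewhere, with Sox9 at 13.47 on CA39 and 12.15 to 12.48 elsewhere. The sum rests on Sox9, as Acan was lowest on CA39 (7.73, against 7.79 to 7.99 elsewhere). Col2a1, which defines cartilage, was detected on untreated only. For the 4 adipocyte markers the sum was lowest on CA39, at 954 against 1626 to 2587, carried by Fabp4, and Adipoq and Cfd were not detected on any array. The fibroblast sum was highest on CA39, at 1241358 against 813846 to 962887, while S100a4 alone was lowest there (18.06, against 18.20 to 18.28 elsewhere). The part of these genes in the CA39 values of Igf1, Igfbp4 and Igfbp7 was not tested.

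The sums of the remaining marker lists ran from 1006 to 1666 for osteoblast (Ibsp not detected on any array), from 2028 to 2582 for smooth muscle, from 3193 to 4421 for blood and from 3836 to 4343 for endothelium. The osteoblast sum was highest on CA39 as well and rests on Runx2, since Sp7 was lower there than on untreated (a difference of -0.22) and AR7 (-0.14).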

How the data were processed

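Cy3-labelled RNA of 4 cultures was hybridized to Agilent mouse 8x60K arrays on 1 slide. The deposited scanner intensities came from Feature Extraction 10.7.3.1, and the array design cites build mm9. The authors' notes name oligo and RMA, and RMA values were not used here. The deposited series table holds the background-subtracted intensity of the same spots, with no log and no scaling.

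Spot medians and local background medians were corrected by the normal-exponential model (limma 3.58.1 in R 4.3.3). Control spots were then left out and the arrays were quantile normalized. After that, 142 to 328 flagged gene spots per array were left out and spots of a probe were averaged on the log2 scale. No spot was saturated (0). Symbols came from accessions matched to RefSeq GRCm38.p6, which named 27512 of 55378 probes (20895 symbols), and 20594 of 36838 gene names were detected on all arrays. A gene counted as past 2-fold at a log2 difference of at least 1 with detection on 1 or both arrays.

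All members were named with every probe. Of the wider list, genes past 2-fold were named, with Insr, Igf2, Igf2r, Irs1 and Irs2. A gene of that list is not reported here and is left out of its counts. The 3 nearest patterns were named for members past 2-fold and detected on every array. The members and lists were chosen with earlier results of these data known. The scripts were tested on simulated data. Summaries and plots used Python 3.11.15, pandas 2.3.3, numpy 2.4.6 and matplotlib 3.10.9. Precision is limited by 1 array per group.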

Additional observations from a re-analysis of the deposited data

How the results depend on the processing

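Over the alternatives run (another offset, scaling, source of values, floor, spot flags, position, probe choice, threshold and detection filter), 80 of 99 counts were the same within 1.5 times and 19 moved. Of 197 differences of single members, 164 moved by less than the general tolerance of 0.16 and 33 by more. Part of these could hardly move, so the tally is no measure of stability. No member spot was flagged, and averaging probes changes only members with several detected probes. The floor does not enter where a probe was detected on both arrays. No difference past 2-fold in the main processing changed sign (0). Igfbp4 with CA39 ran from 0.99 to 1.13, Igfbp7 with CA39 from -1.36 to -1.19, and Igfbp6 from 0.56 to 0.61 with AR7, 0.47 to 0.60 with CA39 and 0.46 to 0.49 with CA77. Igf1 with CA39 ran from -0.37 to 1.43, turning from -0.16 to 1.43 with the mean of its detected probes. At 1.5-fold the member counts became 2 with AR7, 1 with CA77, 2 for CA39 against AR7, 1 for CA77 against AR7 and 2 for CA39 against CA77 (4.71%, 6.47%, 14.2%, 4.73% and 13.2% of all genes), and the wider counts 2, 3 and 1 with AR7, CA39 and CA77. An offset of 50 left 1 member with CA39 and 0 for CA39 against CA77. Over all genes calls with CA39 fell as well, from 1030 higher and 324 lower to 765 and 248 of 27891. For CA39 against CA77 they became 809 and 471 of 25468. The mean of all detected probes gave 3 members with CA39 (2 higher and 1 lower), against 996 higher and 287 lower of 27973 genes. It gave 2 for CA39 against AR7 (845 higher and 549 lower of 23191 genes) and 2 for CA39 against CA77 (986 and 539 of 25547). The wider count with AR7 became 1 with the floor at the lowest detected signal and 2 with no floor. Calls over all genes rose too, from 501 higher and 108 lower to 556 and 297 of 27855 (lowest floor) and 839 and 353 of 36838 (no floor). The wider count with CA39 became 2 with the lowest floor and 2 with no floor. Over all genes these gave 1076 higher and 400 lower of 27894, and 1391 and 650 of 36838. The wider count with CA77 became 1 (lower) with the 75th percentile scaling, with the quantile-normalized processed signal and with the deposited series table. Lower calls over all genes rose from 154 of 28126 to 439 of 28153, 384 of 28133 and 372 of 28128 in the same order. Over all genes, the share of calls that were higher was 82.3% with AR7, against 65.2% with the lowest floor and 70.4% with no floor, and 77.9% with CA77, against 65.0% with the 75th percentile scaling. The cause was not tested. No paired analysis was possible because each group has 1 array, and for the same reason no array could be left out. Dim probes limit Igfbp2, Igfbp3, Igfbp5 and most Igf1 values, which lie near or under background.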
